A study of Homo sapiens with 12 samples.

Results

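The genes described here are the 2 receptors of tumour necrosis factor and the genes of the NF-κB pathway that shape or report the response to it: TNFRSF1A, TNFRSF1B, BIRC2, BIRC3, NFKBIA, TNFAIP3, NFKB1, NFKB2, RELB and ICAM1. They were chosen by symbol, and all 10 were found among the 26468 gene symbols used. Poly(A) RNA was sequenced from 2 human cancer lines, PC3 (derived from a prostate cancer) and MG63 (derived from an osteosarcoma). Each line received 1 of 3 siRNAs at 10 nM with a lipid reagent and was collected after 72 h: a control siRNA (siControl), an siRNA against LARP4 (siLARP4A) or an siRNA against LARP4B (siLARP4B). LARP4 and LARP4B encode related La-type RNA-binding proteins that bind poly(A)-binding protein and mRNA. The 6 groups held 2 libraries each, 12 in all, described as biological replicates. PC3 was grown in RPMI 1640 and MG63 in Alpha-MEM, so line and medium cannot be told apart. The labels give neither the sequences of the siRNAs nor their number per target, so loss of the target and effects of an siRNA on other transcripts cannot be told apart.

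Tumour necrosis factor binds 2 receptors. TNFR1, from TNFRSF1A, carries a death domain and is made by most cell types, whereas TNFR2, from TNFRSF1B, lacks one, is more restricted and recruits TRAF2 with the ubiquitin ligases cIAP1 (BIRC2) and cIAP2 (BIRC3). Signalling releases NF-κB dimers from their inhibitors, and the dimers switch on genes that include their own brakes, IκBα (NFKBIA) and A20 (TNFAIP3), so that mRNA of these genes is often read as a trace of pathway activity.

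Several of these genes carry the letters of the κB motif, the DNA element that NF-κB dimers bind, just before their start. RefSeq promoter windows (GRCh38.p14) placed at the start of the gene model used were found for 8 of the 10 genes, not for BIRC2 and RELB, and the 250 bases before the start were searched on both strands. A stricter form of the κB motif, GGG and TTTCC with any 2 bases between them, was held by 5 of the 8 windows (BIRC3, NFKBIA, TNFAIP3, NFKB1 and NFKB2) and by 1.73% of 35116 promoter windows. The same 5 held the looser κB consensus, which overlaps the stricter motif and was present in 9.96% of all windows. No match lay in the windows of TNFRSF1A, TNFRSF1B and ICAM1, which says only that these letters are not in these windows. The windows of BIRC3, NFKBIA and TNFAIP3 are printed as examples of genes whose siLARP4B responses differed between the lines. That of TNFRSF1B is printed because its mRNA had the highest log2 increase of the 10 genes with siLARP4A in PC3. ICAM1 and TNFRSF1B, without a match, and NFKB2, with one, also differed between the lines with siLARP4B. NFKB1, with a match, and TNFRSF1A, without one, did not pass (edgeR adjusted p = 0.19 and 0.26). Whether the motif bears on these responses was not tested. Capitals mark κB consensus matches, and each window is written 5′ to 3′ on the strand of its gene. BIRC3 lies at chr11:102317234-102317483 (+), NFKBIA at chr14:35404750-35404999 (-), TNFAIP3 at chr6:137867009-137867258 (+) and TNFRSF1B at chr1:12166741-12166990 (+).
BIRC3: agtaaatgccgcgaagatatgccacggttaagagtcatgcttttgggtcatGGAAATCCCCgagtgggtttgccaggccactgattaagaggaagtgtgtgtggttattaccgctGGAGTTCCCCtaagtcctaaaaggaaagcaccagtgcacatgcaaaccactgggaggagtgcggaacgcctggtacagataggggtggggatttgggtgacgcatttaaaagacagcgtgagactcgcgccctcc
NFKBIA: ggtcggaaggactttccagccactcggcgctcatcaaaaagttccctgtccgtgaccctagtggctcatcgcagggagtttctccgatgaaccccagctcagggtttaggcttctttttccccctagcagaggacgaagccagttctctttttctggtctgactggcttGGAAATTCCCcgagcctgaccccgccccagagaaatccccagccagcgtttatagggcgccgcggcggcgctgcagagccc
TNFAIP3: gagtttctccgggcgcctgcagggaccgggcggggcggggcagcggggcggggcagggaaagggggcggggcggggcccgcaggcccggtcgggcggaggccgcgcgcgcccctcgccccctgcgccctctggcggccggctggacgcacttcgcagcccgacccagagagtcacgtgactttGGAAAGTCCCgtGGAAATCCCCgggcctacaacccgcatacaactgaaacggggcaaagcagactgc
TNFRSF1B: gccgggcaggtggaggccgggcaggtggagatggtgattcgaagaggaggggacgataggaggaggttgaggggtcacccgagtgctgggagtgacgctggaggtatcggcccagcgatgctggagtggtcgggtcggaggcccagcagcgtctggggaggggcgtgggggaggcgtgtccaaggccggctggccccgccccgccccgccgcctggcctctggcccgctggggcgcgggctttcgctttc
In the first 3 windows every capital run is the other-strand form of the motif. BIRC3 holds 2 runs, of which the one starting at -199 from the gene start also fits the stricter motif, as GGGGATTTCC on the other strand. NFKBIA holds 1, starting at -81, as GGGAATTTCC on the other strand. TNFAIP3 holds 2 neighbouring runs, starting at -67 and -55.

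**Figure D1:**
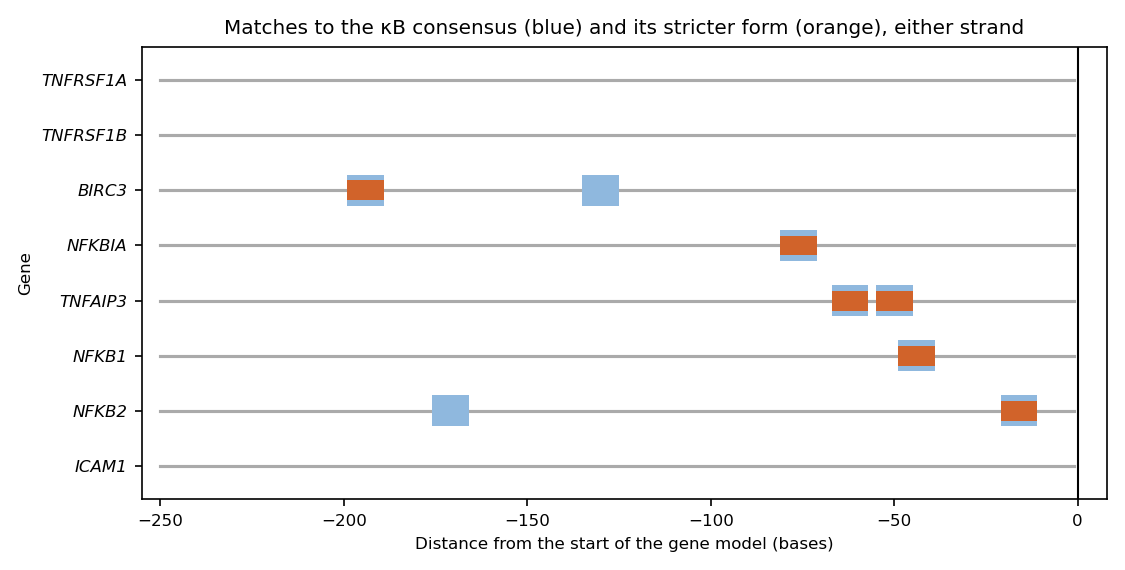
Position of κB motif matches in the 250 bases before the start of 8 gene models; the x axis is the distance from the start in bases, tall blue boxes are matches to the looser consensus and shorter orange boxes matches to the stricter motif on either strand. Boxes lie in 5 genes, and the TNFRSF1A, TNFRSF1B and ICAM1 lines carry none.

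Depth was 16950119 to 24864977 counted fragments per library, and 15685 genes passed the filter on low counts, all 10 members among them. Levels are given as FPKM (fragments scaled to mRNA length and library size), as deposited by the authors. Changes are log2 fold changes fitted to the fragment counts, and a gene was called at an edgeR adjusted p under 0.05. Each siRNA lowered its target: LARP4 was at a mean of 19.2 FPKM with siControl and 2.41 with siLARP4A in PC3, and at 8.34 and 2.15 in MG63. LARP4B was at 7.10 FPKM with siControl and 1.31 with siLARP4B in PC3, and at 6.71 and 2.05 in MG63. The knockdown was deeper in PC3 than in MG63. The difference in log2 change, PC3 minus MG63, was -1.02 for LARP4 with siLARP4A (edgeR adjusted p = 1.1e-06). For LARP4B with siLARP4B it was -0.75 (edgeR adjusted p = 4.2e-05). The part of unequal knockdown in the line differences given below was not tested. The paralogue LARP4 rose with siLARP4B in MG63, to 11.1 FPKM (log2 0.43, edgeR adjusted p = 8.4e-06), and was at 18.9 FPKM in PC3 (-0.03, edgeR adjusted p = 0.71), a difference between the lines of -0.46 (edgeR adjusted p = 2.4e-04) whose part in the siLARP4B line differences was not tested. With siControl, 5 of 5 epithelial markers reached 1 FPKM in PC3 and 2 of 5 in MG63. Of 7 osteoblast-lineage markers 5 reached 1 FPKM in each line, and RUNX2 and ALPL, a defining pair, stayed under 1 FPKM in both. The 7 summed to 4910 to 4940 FPKM in MG63 and 475 to 498 in PC3. Most of each sum was VIM, at 2981 and 2964 FPKM in MG63 and 482 and 462 in PC3. COL1A1, COL1A2 and SPARC lay between 458 and 747 FPKM in MG63 and between 2.38 and 5.34 in PC3.

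The receptors behaved unlike each other. TNFRSF1A, the broadly expressed death-domain receptor, passed the test in no siRNA comparison, while TNFRSF1B rose with siLARP4A in both lines, and with siLARP4B it fell in PC3 and rose in MG63. In PC3, TNFRSF1A read 52.5 and 53.0 FPKM with siControl, 48.9 and 52.7 with siLARP4A and 52.8 and 49.8 with siLARP4B. In MG63 it read 76.5 and 74.6 FPKM with siControl, 77.5 and 79.0 with siLARP4A and 80.6 and 76.4 with siLARP4B. The 4 log2 changes against siControl lay between -0.04 and 0.07. The libraries of PC3 overlapped across its 3 groups, and the 6 MG63 libraries all lay above the 6 of PC3.

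TNFRSF1B in PC3 read 1.34 and 1.57 FPKM with siControl, 5.00 and 5.48 with siLARP4A and 0.892 and 1.14 with siLARP4B. No group overlapped another. With siLARP4A it rose by a log2 value of 1.86 (SE 0.11), with an edgeR adjusted p of 3.8e-11, and with siLARP4B it fell by 0.54 (SE 0.16, edgeR adjusted p = 0.0090). The siLARP4B value rests on 63 and 71 fragments against 89 and 110, and the call was lost without siControl replicate 2 (log2 change -0.43, edgeR adjusted p = 0.097) or without siLARP4B replicate 1 (-0.36, edgeR adjusted p = 0.15). In MG63 the gene read 8.87 and 9.86 FPKM with siControl, 21.8 and 21.9 with siLARP4A and 16.1 and 15.2 with siLARP4B, again without overlap. It rose by 1.22 with siLARP4A (SE 0.07, edgeR adjusted p = 6.6e-11) and by 0.76 with siLARP4B (SE 0.07, edgeR adjusted p = 7.1e-08). As a share of the TNFRSF1A level per length, TNFRSF1B went from a mean of 2.76% with siControl to 10.3% with siLARP4A and 1.99% with siLARP4B in PC3, and from 12.4% to 27.9% and 19.9% in MG63. In such bulk samples, fewer cells of a type and less RNA per cell cannot be told apart. TNFRSF1B is also a leukocyte gene: summed leukocyte markers, mostly CD68, were at 30.2 to 32.6 FPKM with siControl in MG63, at 21.5 to 22.4 with siLARP4A and at 15.2 to 15.6 with siLARP4B. In PC3 the sums were at 15.5 to 16.2 FPKM with siControl, 18.7 to 21.1 with siLARP4A and 12.3 with siLARP4B. There CD68 alone of the 4 markers read reached 1 FPKM, and CD3E was at 0 in all 12 libraries. A sum carried mostly by 1 gene cannot show how many such cells were present. The part of such cells in the result was not tested.

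**Figure D2:**
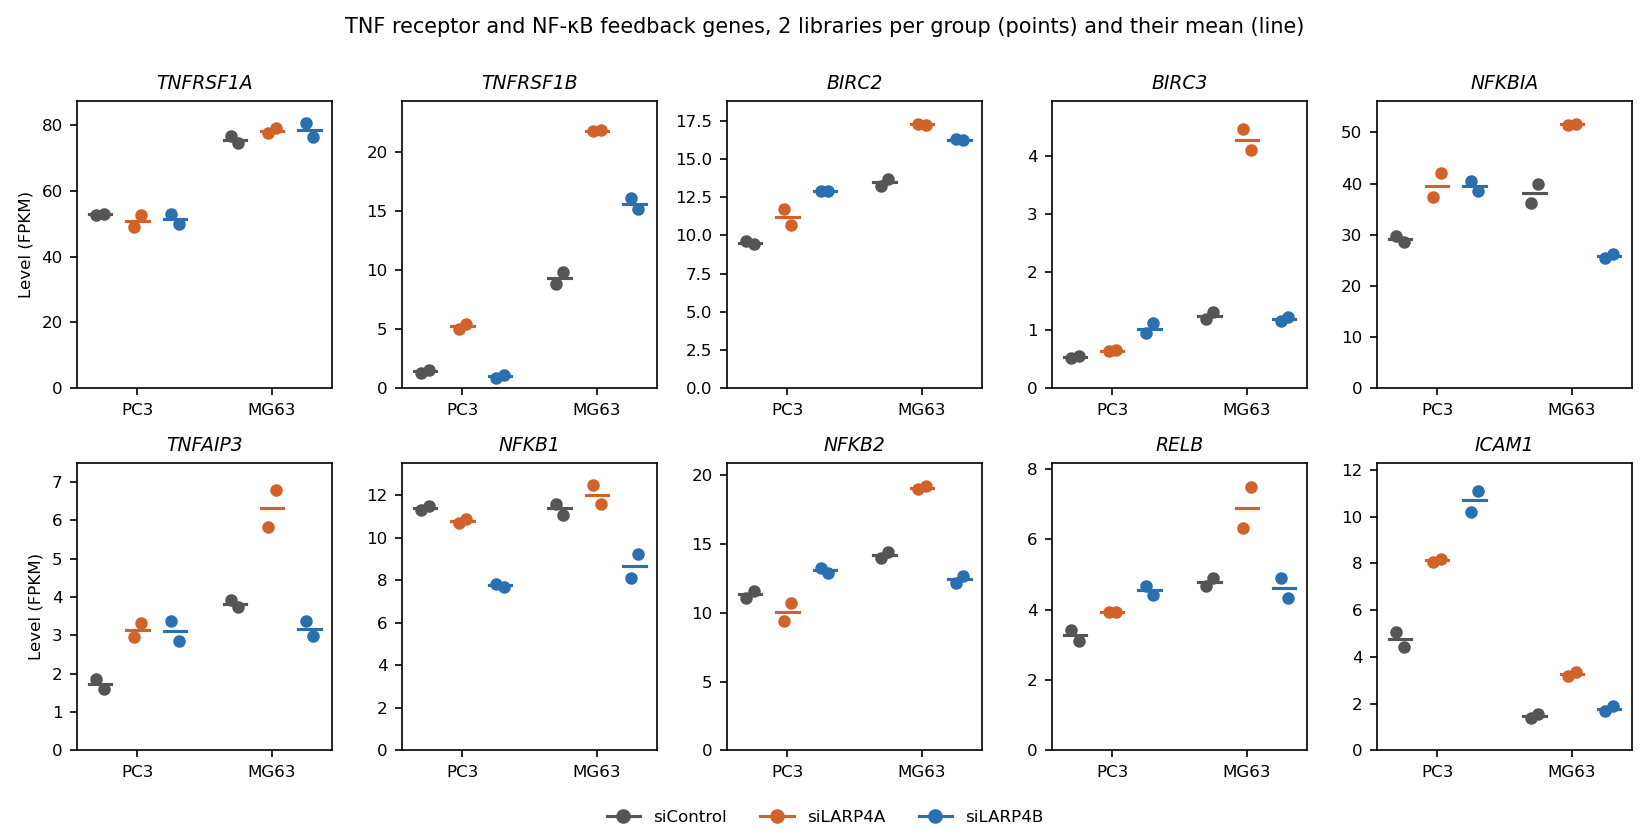
Level in FPKM of the 10 genes (y axis, from 0, a scale for each gene) in PC3 and MG63; points are the 2 libraries of a group, lines their mean, and colours the 3 siRNAs. TNFRSF1A lies flat within each line, TNFRSF1B is highest with siLARP4A in both lines, and BIRC3 stands out with siLARP4A in MG63 at a mean of 4.28 FPKM.

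The cIAP genes share a locus on chromosome 11 and encode ubiquitin ligases that TRAF2 brings to the receptors, where they feed the canonical pathway and hold down the noncanonical one. BIRC2 rose in all 4 siRNA comparisons with siControl, whereas BIRC3 rose with siLARP4A in MG63 and with siLARP4B in PC3. BIRC2 in PC3 read 9.64 and 9.41 FPKM with siControl, 11.7 and 10.7 with siLARP4A and 12.9 and 12.9 with siLARP4B. In MG63 it read 13.2 and 13.7 with siControl, 17.3 and 17.2 with siLARP4A and 16.3 and 16.2 with siLARP4B. Both siRNA groups lay above siControl in both lines. The log2 changes were 0.26 and 0.43 in PC3 and 0.36 and 0.29 in MG63 (edgeR adjusted p between 1.2e-05 and 0.0034); the siLARP4A call in PC3 was lost without siLARP4A replicate 1 (0.18, edgeR adjusted p = 0.06).

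BIRC3, itself a target of NF-κB, read 1.20 and 1.31 FPKM with siControl in MG63, 4.47 and 4.10 with siLARP4A and 1.16 and 1.23 with siLARP4B. Only the siLARP4A libraries stood apart, by a log2 value of 1.77 (SE 0.10) with an edgeR adjusted p of 5.3e-11, and the change with siLARP4B was -0.06 (edgeR adjusted p = 0.77). In PC3 it read 0.518 and 0.550 FPKM with siControl, 0.637 and 0.652 with siLARP4A and 0.949 and 1.12 with siLARP4B, from 64 to 130 fragments per library. Here siLARP4B gave the higher level, with a rise of 0.94 (SE 0.15, edgeR adjusted p = 2.4e-05), and siLARP4A gave 0.29 (SE 0.16, edgeR adjusted p = 0.17). The lines differed in their change with siLARP4A by -1.48, PC3 minus MG63 (SE 0.19, edgeR adjusted p = 2.6e-05), and with siLARP4B by 1.00 (SE 0.20, edgeR adjusted p = 6.0e-04). Per length, BIRC3 was 9.31% of BIRC2 with siControl in MG63 and 24.8% with siLARP4A.

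The inhibitor genes rose with siLARP4A in both lines and split by line with siLARP4B. NFKBIA encodes IκBα, which holds NF-κB in the cytoplasm, and TNFAIP3 encodes A20, a ubiquitin-editing enzyme that dampens signalling upstream. NFKBIA read 29.8 and 28.5 FPKM with siControl in PC3, 37.3 and 42.0 with siLARP4A and 40.5 and 38.6 with siLARP4B. Both siRNA groups lay above siControl and overlapped each other, with log2 rises of 0.46 (edgeR adjusted p = 1.7e-05) and 0.44 (edgeR adjusted p = 2.1e-05), each against the same 2 siControl libraries. In MG63 it read 36.3 and 40.0 with siControl, 51.5 and 51.6 with siLARP4A and 25.5 and 26.2 with siLARP4B. There the siRNAs moved it in opposite directions, up by 0.44 with siLARP4A (edgeR adjusted p = 3.3e-05), while with siLARP4B it fell by 0.54 (SE 0.07, edgeR adjusted p = 3.1e-06). The siLARP4B change differed between the lines by 0.98 (SE 0.10, edgeR adjusted p = 2.2e-07).

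TNFAIP3 read 1.86 and 1.59 FPKM with siControl in PC3, 2.96 and 3.33 with siLARP4A and 3.37 and 2.86 with siLARP4B. Again the siRNA groups overlapped each other above siControl, with log2 rises of 0.88 (SE 0.13, edgeR adjusted p = 1.0e-05) and 0.85 (edgeR adjusted p = 1.2e-05). In MG63 it read 3.91 and 3.75 with siControl, 5.83 and 6.80 with siLARP4A and 3.37 and 2.98 with siLARP4B. The siLARP4A rise was 0.72 (edgeR adjusted p = 1.6e-05) and the siLARP4B value was -0.25 (SE 0.11, edgeR adjusted p = 0.090). The siLARP4B change differed between the lines by 1.11 (SE 0.17, edgeR adjusted p = 5.2e-05). The TNFAIP3 model overlaps WAKMAR2 on the other strand, and whether fragments were counted by strand is not given in the sources used here.

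Among the subunits, NFKB1, which encodes the p105 precursor of p50, fell with siLARP4B in both lines and passed no siLARP4A test. It read 11.3 and 11.5 FPKM with siControl in PC3, 10.7 and 10.9 with siLARP4A and 7.82 and 7.69 with siLARP4B. In MG63 it read 11.6 and 11.1 with siControl, 12.5 and 11.6 with siLARP4A and 8.12 and 9.24 with siLARP4B. The siLARP4B libraries were the lowest in each line. In PC3 the gene fell by 0.56 (SE 0.07), with an edgeR adjusted p of 1.7e-06, and in MG63 it fell by 0.37, with an edgeR adjusted p of 3.3e-04; the difference between these 2 changes, -0.19 (edgeR adjusted p = 0.19), did not pass, but it did without MG63 siLARP4B replicate 1 (-0.33, edgeR adjusted p = 0.024).

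NFKB2, which encodes the p100 precursor of p52, and RELB, its usual partner in the noncanonical pathway, rose with siLARP4A in MG63 and with siLARP4B in PC3. NFKB2 read 14.0 and 14.4 FPKM with siControl in MG63, 19.0 and 19.2 with siLARP4A and 12.2 and 12.7 with siLARP4B, with log2 changes of 0.43 (edgeR adjusted p = 4.0e-05) and -0.17 (edgeR adjusted p = 0.064). In PC3 it read 11.1 and 11.6 with siControl, 9.42 and 10.7 with siLARP4A and 13.3 and 12.9 with siLARP4B, with -0.16 (edgeR adjusted p = 0.082) and 0.20 (edgeR adjusted p = 0.024). The siLARP4A value in PC3 was called lower without siLARP4A replicate 2 (-0.25, edgeR adjusted p = 0.012), without any 1 of the 6 MG63 libraries (-0.20, edgeR adjusted p of 0.036 to 0.048) and with the deduplicated table of siControl replicate 2 (-0.20, edgeR adjusted p = 0.035). The siLARP4B value in MG63 was called lower, still at -0.17, in 5 alternatives, among them without either PC3 siLARP4A library (edgeR adjusted p = 0.031). The siLARP4B call in PC3 was lost in others: DESeq2 gave 0.18 (adjusted p = 0.11), and leaving out any 1 of 10 libraries, each siControl and siLARP4B library of PC3 and each of the 6 of MG63, gave 0.15 to 0.22 with edgeR adjusted p of 0.062 to 0.15. NFKB1 fell in the same libraries, and the NFKB2 level went from 99.5% of NFKB1 with siControl to 169% with siLARP4B in PC3. RELB in MG63 read 4.68 and 4.90 FPKM with siControl, 6.32 and 7.48 with siLARP4A and 4.89 and 4.33 with siLARP4B. Its siLARP4A rise was 0.53 (SE 0.11, edgeR adjusted p = 0.0012), and the siLARP4B libraries overlapped siControl. With siLARP4A in PC3 the RELB value was 0.28 (SE 0.13, edgeR adjusted p = 0.087), with the libraries apart from siControl. The siLARP4A difference between the lines, -0.24, did not pass for RELB (edgeR adjusted p = 0.42). In PC3 it read 3.43 and 3.12 with siControl, 3.94 and 3.93 with siLARP4A and 4.68 and 4.42 with siLARP4B, a rise of 0.47 with siLARP4B (edgeR adjusted p = 0.0042) that was lost without siControl replicate 2 (0.39, edgeR adjusted p = 0.06).

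ICAM1, an adhesion molecule for leukocytes and a long-used NF-κB target, rose with siLARP4A in both lines and with siLARP4B in PC3. It read 5.07 and 4.42 FPKM with siControl in PC3, 8.07 and 8.21 with siLARP4A and 10.2 and 11.1 with siLARP4B. The groups were apart, with rises of 0.80 (SE 0.10, edgeR adjusted p = 9.3e-07) and 1.17 (SE 0.09, edgeR adjusted p = 1.4e-09). In MG63 it read 1.38 and 1.55 with siControl, 3.18 and 3.34 with siLARP4A and 1.70 and 1.88 with siLARP4B. The siLARP4A rise was 1.15 (SE 0.14, edgeR adjusted p = 1.5e-06), and siLARP4B gave 0.30 (SE 0.15, edgeR adjusted p = 0.14). That siLARP4B value did not pass though the libraries lay apart, and it rests on 99 and 105 fragments against 74 and 88.

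Counted together, siLARP4A against siControl gave 5 of 10 members higher and 0 lower in PC3 (NFKB2 became 1 lower in the alternatives named above), where 36.4% of the 15685 genes were called, 19.5% higher and 16.9% lower. In MG63 it gave 8 higher and 0 lower, against 26.8% of genes, 13.3% higher and 13.5% lower; the count of called genes in MG63, 4207, was 2698 without siControl replicate 2, 2701 without siControl replicate 1 and 2704 without siLARP4A replicate 1, and the 8 members were called in each of these fits. With siLARP4B, 7 rose and 2 fell in PC3, where 45.7% of genes were called (24.8% higher, 20.9% lower), and 2 rose and 2 fell in MG63, where 34.9% were (18% higher, 16.9% lower). The median log2 change of the members was 0.29 and 0.48 with siLARP4A in PC3 and MG63 and 0.44 and -0.05 with siLARP4B, beside medians over all genes of 0.04 or less. Set against each other, siLARP4A exceeded siLARP4B for 8 members in MG63, with 43.8% of genes called (21.5% higher, 22.2% lower). In PC3 it exceeded siLARP4B for 2 and was below it for 4, with 54.1% called (26.3% higher, 27.8% lower); BIRC2, 1 of the 4 at -0.17, was lost without siLARP4A replicate 2 (-0.11, edgeR adjusted p = 0.19), siLARP4B replicate 1 (-0.18, edgeR adjusted p = 0.087) or siLARP4B replicate 2 (-0.16, edgeR adjusted p = 0.11).

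**Figure D3:**
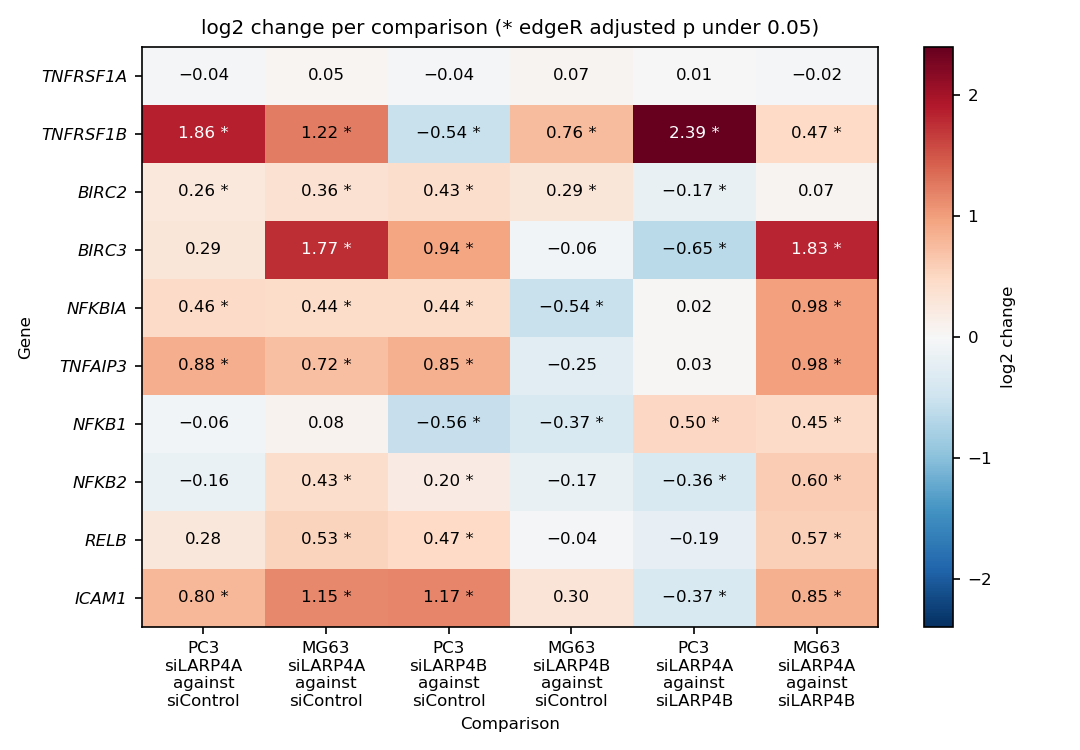
The log2 change of each gene (rows) in 6 comparisons within a line (columns), with colour for size and direction and an asterisk for an edgeR adjusted p under 0.05. The MG63 siLARP4A column holds 8 marked increases, and TNFRSF1A has no mark in any column.

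The lines differed in the siLARP4B change of 7 of 10 members, and 26.8% of all genes did so, 12.4% with the higher change in PC3 and 14.4% with the lower. BIRC3, NFKBIA, TNFAIP3, NFKB2, RELB and ICAM1 had the higher change in PC3, and TNFRSF1B had the lower, by -1.29 (SE 0.18, edgeR adjusted p = 1.2e-05). The RELB and NFKB2 differences, 0.51 and 0.37, were the least firm. RELB was lost without any 1 of 8 libraries, at 0.37 to 0.54 (edgeR adjusted p of 0.051 to 0.17), all but PC3 siControl replicate 1, MG63 siLARP4B replicate 1 and the PC3 siLARP4A pair. NFKB2 was lost without MG63 siControl replicate 2 (0.30, edgeR adjusted p = 0.07) or MG63 siLARP4B replicate 1 (0.29, edgeR adjusted p = 0.06). For siLARP4A the lines differed for 3 of 10, beside 11.2% of all genes (5.75% higher and 5.46% lower in PC3, and 1050 to 1135 genes in place of 1759 without PC3 siControl replicate 1, MG63 siControl replicate 1 or 2, or MG63 siLARP4A replicate 2). BIRC3 and NFKB2 changed more in MG63, and TNFRSF1B changed more in PC3, by 0.64 (SE 0.14, edgeR adjusted p = 0.0043). That TNFRSF1B difference was 0.20 with limma on log2(FPKM + 1) (adjusted p = 0.29) and 0.54 without PC3 siControl replicate 1 (edgeR adjusted p = 0.055). With siControl in both lines, 9 of 10 members were lower in PC3 than in MG63. ICAM1 was higher, at a mean of 4.75 against 1.47 FPKM (edgeR adjusted p = 3.5e-10). Between the lines 82% of all genes were called, 41.3% higher and 40.7% lower in PC3. The NFKB1 difference, -0.18 (edgeR adjusted p = 0.023), was lost without PC3 siControl replicate 1 (edgeR adjusted p = 0.077) or 2 (0.079) or MG63 siControl replicate 1 (0.15), and NFKB1 means were 11.4 FPKM in both lines.

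**Figure D4:**
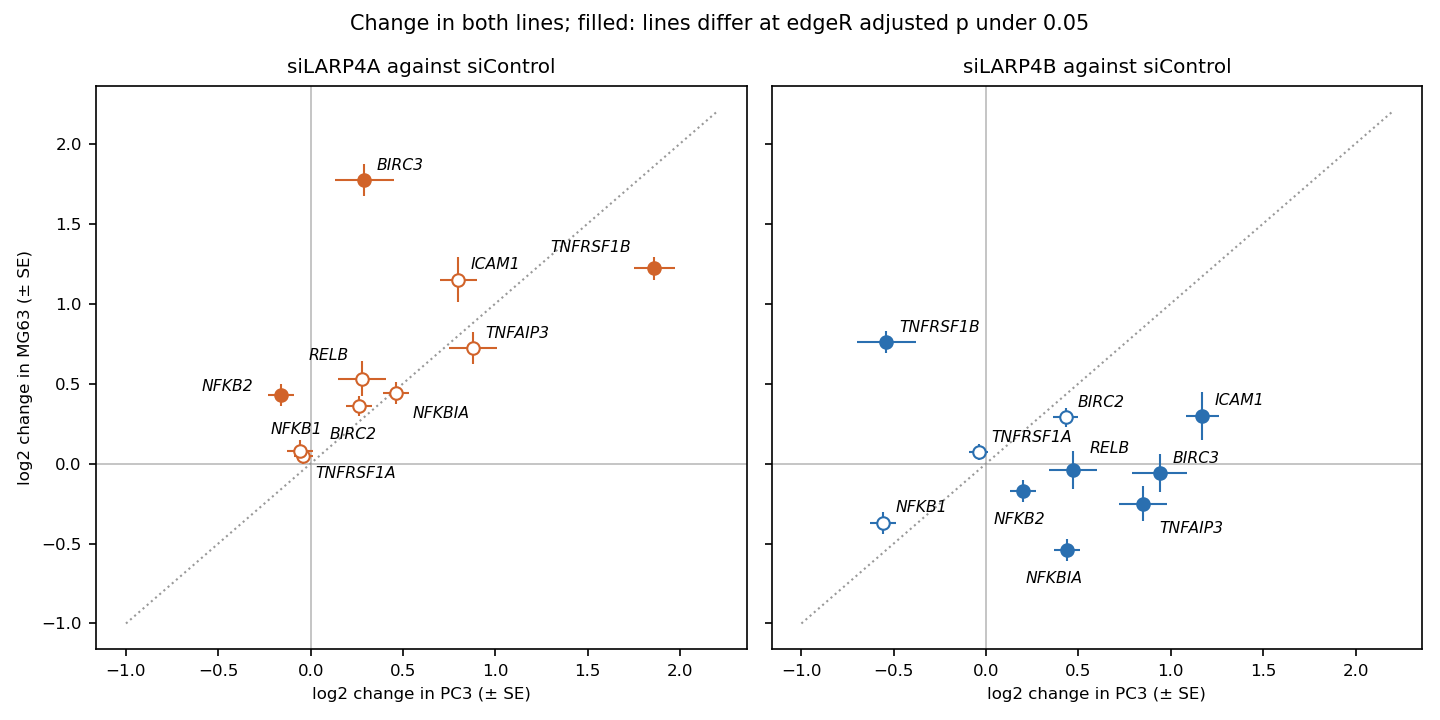
The log2 change against siControl in PC3 (x axis) and MG63 (y axis) for siLARP4A (left) and siLARP4B (right), with SE bars; the dotted line marks equal change and filled points are genes whose change differed between the lines at an edgeR adjusted p under 0.05. With siLARP4A 3 points are filled, and with siLARP4B 7, of which TNFRSF1B alone lies left of 0 and above it.

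The other genes of the pathway were counted in 5 lists, to be read against the shares over all genes: with siLARP4A, 19.5% rose and 16.9% fell in PC3 and 13.3% and 13.5% in MG63, and with siLARP4B, 24.8% and 20.9% in PC3 and 18% and 16.9% in MG63. Of 30 genes of the receptor complexes and kinases, 11 rose (36.7%) and 5 fell (16.7%) with siLARP4A in PC3, and 7 rose (23.3%) and 2 fell (6.67%) in MG63. With siLARP4B, 7 rose (23.3%) and 5 fell (16.7%) in PC3, near the shares over all genes, and 3 rose (10.0%) and 9 fell (30.0%) in MG63. The median log2 change of this list lay between -0.06 and 0.08 in the 4 comparisons. MAP3K14, which encodes NIK, the kinase of the noncanonical pathway that cIAPs keep low as a protein, went from a mean of 4.88 to 12.6 FPKM with siLARP4A in MG63 (log2 1.37, SE 0.08, edgeR adjusted p = 3.6e-11). With siLARP4B in PC3 it went from 4.67 to 6.62 FPKM (0.50, edgeR adjusted p = 4.5e-05). Its other 2 changes, looked up after these were seen, were 0.67 with siLARP4A in PC3 (edgeR adjusted p = 1.0e-06) and 0.29 with siLARP4B in MG63 (edgeR adjusted p = 0.011), so MAP3K14 rose in all 4 siRNA comparisons. IKBKB, which encodes the IκB kinase IKKβ, fell by 0.62 with siLARP4B in MG63 (SE 0.07, edgeR adjusted p = 7.4e-07), where NFKBIA also fell. IKBKG rose by 0.89 with siLARP4A in PC3, but it has a near-identical pseudogene and its count is uncertain. Of 10 other Rel subunits and inhibitors, 2 rose and 0 fell with siLARP4A in PC3, 2 rose and 1 fell in MG63, and with siLARP4B 4 rose and 0 fell in PC3 and 3 rose and 1 fell in MG63. The medians of these 10 genes lay between -0.01 and 0.13. NFKBIE, another IκB gene, rose by 0.66 with siLARP4B in PC3 and, in MG63, by 0.50 with siLARP4A and by 0.49 with siLARP4B, while its value with siLARP4A in PC3 was 0.06 (edgeR adjusted p = 0.76). BCL3, a coactivator of p50 and p52, rose by 0.34 with siLARP4B in PC3 and fell by 0.29 in MG63.

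Among other NF-κB targets, 26 of 34 were tested. With siLARP4A, 5 rose (19.2%) and 3 fell (11.5%) in PC3, at or below the shares over all genes, and 10 rose (38.5%) and 1 fell (3.85%) in MG63. With siLARP4B, 8 rose (30.8%) and 1 fell (3.85%) in PC3, and 8 rose (30.8%) and 2 fell (7.69%) in MG63. The list's median was 0.20 and 0.40 with siLARP4A in PC3 and MG63 and 0.18 and 0.13 with siLARP4B. IL32, a cytokine gene, rose by 1.00 with siLARP4A in PC3, by 1.12 with siLARP4B in PC3 and by 1.37 with siLARP4A in MG63, and its value with siLARP4B in MG63 was -0.20 (edgeR adjusted p = 0.31). TNFAIP2 rose by 1.45 with siLARP4A in PC3 (2.17 to 5.84 FPKM), yet the chemokine gene CXCL1 fell by 1.04 (30.0 to 14.4 FPKM) and IRF1 fell by 0.75 in the same libraries, so known targets did not share a direction there. In MG63, siLARP4B went with a rise of CXCL10 from 0.508 to 2.99 FPKM (2.57, SE 0.33, edgeR adjusted p = 5.3e-06), while IL1B fell by 0.97 and BCL2L1, an inhibitor of apoptosis, by 0.53.

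Ligands, sheddases and other receptors of the family were listed as well. TNF itself had 0 fragments in all 12 libraries, but its symbol lies at several loci and its level was not analysed here. Of 17 ligands and sheddases, 11 were tested. With siLARP4B 5 rose (45.5%) and 1 fell (9.09%) in PC3 and 1 rose and 1 fell (9.09% each) in MG63. The 1 that rose in MG63 was TNFSF10, at the floor with 0.0685 FPKM against 0 with siControl. TNFSF10 was also among the 5 in PC3, at 0.692 FPKM against 0.288. With siLARP4A, 3 rose in PC3 (27.3%) and 2 in MG63 (18.2%), and 0 fell. Of these 2 in MG63, TNFSF4 was at only 0.176 FPKM. The medians were -0.07 and 0.05 with siLARP4A in PC3 and MG63 and 0.59 and 0.24 with siLARP4B. ADAM10, a membrane protease, fell with siLARP4B in both lines, by 1.13 in PC3 (6.28 to 2.88 FPKM, edgeR adjusted p = 1.1e-12) and by 0.76 in MG63 (19.0 to 11.1 FPKM, edgeR adjusted p = 1.4e-10). TNFSF4, which encodes the OX40 ligand, rose by 1.38 with siLARP4B in PC3. Of 27 other receptors, 18 were tested. With siLARP4A, 5 rose and 5 fell in PC3 (27.8% each), and 2 rose (11.1%) and 1 fell (5.56%) in MG63, below the shares over all genes. With siLARP4B, 6 rose (33.3%) and 2 fell (11.1%) in PC3, and 6 rose and 6 fell (33.3% each) in MG63. Counted as rising in MG63 with each siRNA was TNFRSF9, at no more than 0.1 FPKM. The medians lay between 0.04 and 0.25 in the 4 comparisons. TNFRSF10A, a TRAIL receptor, rose with siLARP4A by 0.59 in PC3 and 0.99 in MG63, and TNFRSF11B, the decoy receptor osteoprotegerin, fell by 0.80 in PC3 and by 1.33 in MG63 (58.9 to 23.3 FPKM). With siLARP4B in MG63 both went the other way, TNFRSF10A at -0.38 (edgeR adjusted p = 0.04) and TNFRSF11B at 0.45 (edgeR adjusted p = 3.0e-05). With siLARP4B in PC3 neither passed, TNFRSF10A at 0.17 (edgeR adjusted p = 0.059) and TNFRSF11B at 0.32 (edgeR adjusted p = 0.13). These siLARP4B values were looked up after the others were seen.

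Genes most like a member over the 12 libraries, by Pearson correlation of log2 values centred within each line among 12437 genes, are given for the members that passed with the same siRNA in both lines. They are a description, since all genes share the same libraries and groups. ETS2 (r = 0.985), ARID3A (0.976) and PDE7A (0.975) were most like TNFRSF1B. For NFKB1 they were TMEM185B (0.978), LYRM1 (0.978) and LARP4B (0.977), the target of siLARP4B. STARD10 (0.978) led for TNFAIP3, PLEKHG5 (0.978) for NFKBIA, MYO18A (0.979) for ICAM1, and RRBP1 and UGCG (both 0.972) for BIRC2.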

How the data were processed

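Poly(A) RNA-seq of 12 libraries (6 groups of 2) was used. The authors deposited, for each library and gene model, fragment counts, a library-scaled signal (FPM) and FPKM; per the submitters' processing notes, hg38, FastQC, HISAT2, featureCounts and edgeR were used, with no roles or versions. The deposited FPKM was taken as the level per length, and the deposited FPM signal (a mean sum of 3350072 per library, since models of a gene share fragments) was read as a check and not tested. The deposited counts were tested, not deduplicated. For each symbol on chromosomes 1 to 22, X, Y and the mitochondrial chromosome, the model with the most fragments over 12 libraries was kept. Of 28306 symbols, 28278 lay on these chromosomes; of those, 1810 at several loci were left out and 26468 were used. Counts were normalised by TMM, filtered by filterByExpr and fitted in edgeR 4.0.16 (R 4.3.3) with its quasi-likelihood test, all 6 groups in 1 fit, and adjusted by Benjamini-Hochberg over 15685 genes in 9 comparisons. The biological coefficient of variation was 4.22%. The p-values rest on a spread between replicate libraries, 2 per group, estimated over all 6 groups together and not for each group alone. That spread was unequal. The chi-square of replicate counts per degree of freedom was 6.28 in PC3 siLARP4A and 5.02 in MG63 siLARP4B. In the other groups it was 1.63 to 2.57, so calls that involve the first 2 groups may be less firm than their p-values. The fit was also run on simulated counts. All groups there shared the same spread, so that run cannot show how the unequal spread affects the calls. Alternatives were DESeq2 1.42.0, RLE scaling, other filters, a replicate block, fewer libraries, limma 3.58.1 on log2(FPKM + 1), the deduplicated table of 1 library (PC3 siControl replicate 2), the longest model and leaving out each library. Named pathway genes were, per list, comparison and direction, up to 2 called genes with the largest change and a mean of at least 1 FPKM in 1 group. The members and lists were chosen with earlier results of these data known.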

Additional observations from a re-analysis of the deposited data

Results flagged for a closer look

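In 10 cases the change of a member with an siRNA differed between PC3 and MG63 by the edgeR test of that difference, given here as PC3 minus MG63 on the log2 scale. With siLARP4A the difference was 0.64 for TNFRSF1B, -1.48 for BIRC3 and -0.59 for NFKB2. With siLARP4B it was -1.29 for TNFRSF1B, 1.00 for BIRC3, 0.98 for NFKBIA, 1.11 for TNFAIP3, 0.37 for NFKB2, 0.51 for RELB and 0.86 for ICAM1. The signs were opposite for TNFRSF1B, BIRC3 and NFKB2 between the 2 siRNAs, but that contrast between the siRNAs was not tested. RELB was lost with DESeq2 (0.48, adjusted p = 0.13).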

How the results depend on the processing

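Over the 9 alternatives other than leaving out 1 library, 791 single-gene results kept direction and call, 14 lost the call, 4 gained one and 1 reversed: NFKB1 between the lines, lower in PC3 by edgeR, was at 0.01 with limma on log2(FPKM + 1) (adjusted p = 0.94). Leaving out 1 library at a time, 1039 kept direction and call, 31 lost it and 10 gained one, with 2698 to 4763 genes called for siLARP4A in MG63 and 1050 to 2035 for the siLARP4A difference between lines. The added 1 of the pseudocount shrank low genes on that scale, BIRC3 with siLARP4B in PC3 to 0.40. That scale also keeps the library-size scaling of the deposited FPKM, whereas the edgeR changes use TMM. Between the lines the scales can differ in sign. With siControl, LARP4B was at 7.10 FPKM in PC3 and 6.71 in MG63, with an edgeR log2 change of -0.10 (edgeR adjusted p = 0.14). The part of the scaling in the NFKB1 reversal was not tested. Same-numbered libraries did not deviate together (correlations from -0.12 to 0.083), so the numbers were not taken as pairs. With a replicate block, 5558 genes were called for siLARP4A in PC3, 6987 for siLARP4B in PC3, 4049 and 5306 in MG63, and 9 of 10 members in place of 10 between the lines. With crossed numbers, chosen after seeing the data, 5956 genes were called for siLARP4A in PC3 and 8709 between the siRNAs in PC3. Depth limits BIRC3 and TNFRSF1B in PC3, at 63 to 130 fragments in the siControl and siLARP4B libraries. It also limits ICAM1 in MG63, at 74 to 105 fragments in the siControl and siLARP4B libraries.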
